A study of Arabidopsis thaliana with 6 samples.

Results

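Alpha-expansins are small secreted proteins that loosen plant cell walls at acid pH by disturbing contacts between cellulose and the other wall polysaccharides, without cutting them. They let turgid cells enlarge, and dark-grown seedlings, whose stems lengthen much more than those of light-grown ones, are a classic setting for such growth. Hydrogen peroxide (H2O2) in the wall is known both to stiffen it, through peroxidases that cross-link wall polymers, and to loosen it as a source of radicals.

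Described here are the alpha-expansin genes outside root hairs: every gene with a symbol of EXPA plus digits that a probe set names alone, other than EXPA7 and EXPA18, which act in root hairs. They number 8, EXPA4, EXPA8, EXPA9, EXPA15, EXPA16, EXPA20, EXPA21 and EXPA24, of 13350 genes named in this way, and each has 1 probe set. The RefSeq gene table lists 26 alpha-expansins. Besides the 8 and the root hair pair, 4 are in probe sets that list several genes, and 12 are not analysed here. The rule uses gene names and no measured value, but it was chosen with earlier results of these data known.

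Whole seedlings of Arabidopsis thaliana accession Col-0, the wild-type reference strain, were cultured on a Murashige and Skoog medium and harvested at an age of 7 days. The dark group received no light, the H2O2 group was kept dark and given 5 mM H2O2, and the light group had 16 h of light and 8 h of darkness a day. Each group has 2 replicates, which the series design calls biological, on Affymetrix ATH1 arrays, 6 arrays in all. The sources do not say when or for how long H2O2 was applied. According to the series design, growth in darkness served to keep the seedlings' own H2O2 low.

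Values are log2 expression, so a difference of 1 is a doubling, and a group mean under 5.16 is called dim, a bound that takes in the 40% of probe sets with the weakest mean signal. Replicate arrays correlated at r = 0.993 to 0.995 over 22746 probe sets. Differences were tested with limma over all of these and called at an adjusted p under 0.05. The number of arrays limits the precision, with a median standard error per difference of 0.15 both for the 8 genes and for all probe sets. Centring on the spiked-in hybridisation controls raised every difference from dark by 0.67 with H2O2 and by 0.86 in light (0.19 between light and H2O2). The controls averaged 10.07 and 10.62 on the dark arrays, 9.76 and 9.60 with H2O2, and 9.14 and 9.84 in light. They thus differed between replicates too, and this scale adds that scatter to every probe set. A call lost on it may therefore reflect the controls as much as the gene. Centring on the array median moved the differences from dark by -0.12 and -0.11.

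The labelled tissue was checked against cell type markers. Here and in the lists below, a gene counts as measured where a probe set names it alone in the annotation used. As 8730 probe sets are unnamed there, the arrays may hold more of the listed genes. Of 7 measured mesophyll genes, among them RCA, which encodes Rubisco activase, none was dim in any group. All 7 were higher in light, SBPASE of the Calvin cycle most, at 4.01. PSAN and PRK were called higher with H2O2, but PSAN lost that call on leaving out any 1 dark or H2O2 array and PRK on leaving out dark replicate 2 or either H2O2 array. The summed log2 level, meaning the log2 of the sum of unlogged values, was taken over all 7 mesophyll genes. It was 13.36 to 13.45 in the dark, 13.56 to 13.72 with H2O2 and 15.71 to 15.74 in light. Of the root hair markers only EXPA7 and EXPA18 were measured, at a summed log2 level of 6.24 to 6.87 in the dark, 5.05 to 5.17 with H2O2 and 7.44 to 7.64 in light. Both xylem markers measured, GUT2 and IRX15, were lower in light, with differences of -0.80 and -0.42 that turned to 0.063 and 0.44 with the hybridisation controls as the scale. IRX15, dim in every group, was not called when any 1 dark or light array was left out. The seed oleosin OLEO3, the one seed marker measured, had -2.60 in light, where it was dim, and 0.54 with H2O2, both called. The latter call was lost when dark replicate 1 or either H2O2 array was left out. No listed marker of dividing cells was named alone by a probe set here, so none was analysed. The part of these markers in the expansin results was not tested, and in whole seedlings fewer cells of a type and less RNA per cell cannot be told apart.

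Light was set against dark to find expansin transcripts that differ between seedlings grown with and without it. EXPA9, EXPA16, EXPA20 and EXPA4 were lower in light, 2.44 to 3.96 times, and EXPA8 was 1.90 times higher. EXPA15, EXPA21 and EXPA24 were not called. So 5 of 8 genes (62.5%) were called, where 48.0% of all probe sets were, and 4 were lower and 1 higher against 25.0% and 23.0% of all probe sets. With only 8 genes, 5 calls are near the share of 48.0%. The balance of lower and higher depends on the scaling. With the hybridisation controls as the scale EXPA9 and EXPA20 were still called lower and EXPA8 higher. On that scale EXPA16 and EXPA4 were not called, and EXPA15 was called higher. The arrays did not overlap between light and dark for 7 of the 8, where 72.7% of all probe sets had no overlap. The 7 include EXPA15 and the dim EXPA24, which were not called. The median difference of the 8 was -0.67, beside -0.064 for all probe sets, and the median absolute difference was 1.11 beside 0.40.

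EXPA20 read 7.72 and 7.65 on the dark arrays, 7.23 and 6.92 with H2O2, and 5.81 and 5.59 in light. The 3 groups form steps that do not overlap, with light lowest. The difference between light and dark was -1.98 ± 0.15 (SE, 2 arrays in each group; adjusted p = 7.56e-06 by limma), and 2.47% of all probe sets had a lower one. EXPA9 read 9.11 and 9.01 in the dark, 9.16 and 8.80 with H2O2, and 7.16 and 7.11 in light. Its dark and H2O2 arrays overlap, and both light arrays lie far under them. The difference from dark was -1.93 ± 0.15 (limma adjusted p = 8.42e-06), with 2.67% of probe sets lower.

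EXPA16 read 5.86 and 6.34 in the dark, 6.24 and 6.26 with H2O2, and 4.59 and 4.51 in light. Dark replicate 1 was the lowest of the 4 dark-grown arrays, and the light arrays lie under all of them at a dim level, where the array resolves differences less well. The difference was -1.55 ± 0.17 (limma adjusted p = 6.03e-05). EXPA4 read 10.25 and 10.27 in the dark, 10.66 and 10.71 with H2O2, and 9.13 and 8.81 in light. Here the H2O2 arrays are the highest and the light arrays the lowest, with no overlap among the 3 groups. The difference between light and dark was -1.29 ± 0.15 (limma adjusted p = 7.84e-05).

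These 4 genes were lower in light under all 14 alternatives run. With the hybridisation controls as the scale, however, EXPA16 had -0.69 (limma adjusted p = 0.149) and EXPA4 had -0.43 (adjusted p = 0.369) and neither was called, while EXPA9 at -1.07 and EXPA20 at -1.12 still were.

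**Figure D1:**
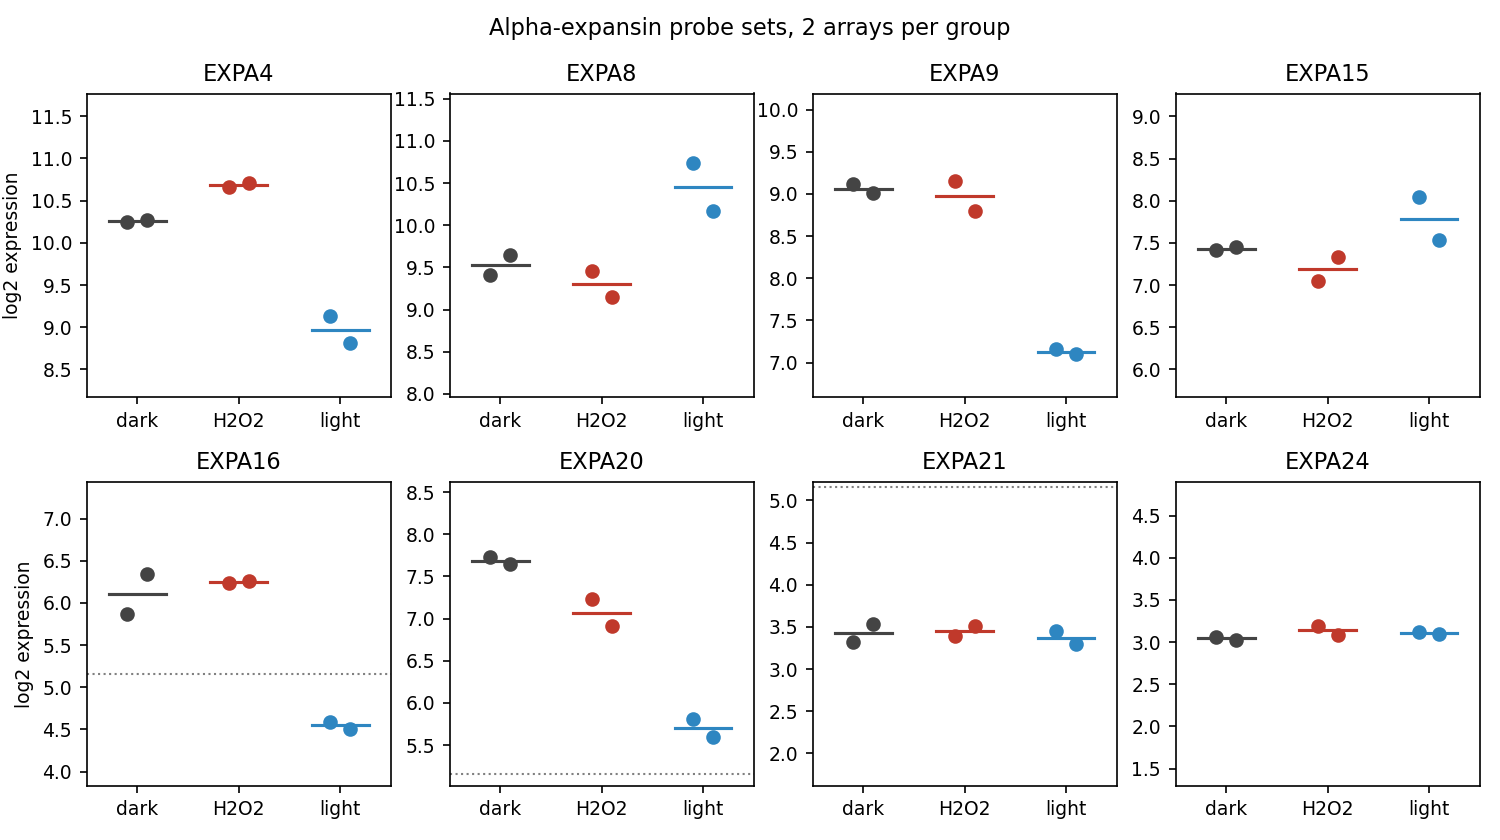
Log2 expression (y axis, the same span in each panel) of the 8 alpha-expansins on each array of the dark, H2O2 and light groups; points are arrays, bars are group means of 2 arrays, and the dotted line is the bound of 5.16 for dim levels, which lies above the panel of EXPA24. EXPA4, EXPA9, EXPA16 and EXPA20 have both light arrays under all others, EXPA8 has both above, and EXPA21 and EXPA24 are dim in every group.

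EXPA8 read 9.41 and 9.64 in the dark, 9.46 and 9.15 with H2O2, and 10.74 and 10.17 in light. The light arrays lie above the others but differ from each other (SD 0.40), the widest spread within a group among the 8 genes. EXPA8 was higher in light by 0.93 ± 0.21 (limma adjusted p = 0.00457), and higher by 0.64 to 1.79 under the 14 alternatives, each of which called it.

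EXPA15 read 7.41 and 7.45 in the dark, 7.05 and 7.33 with H2O2, and 8.04 and 7.53 in light. Both light arrays lie above both dark ones, replicate 2 only narrowly. The difference was 0.36 ± 0.19 and was not called (limma adjusted p = 0.151; 95% interval -0.065 to 0.78). It was called at 0.61 without light replicate 2 (adjusted p = 0.0242) and at 1.22 with the hybridisation controls as the scale (adjusted p = 0.0126).

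EXPA21 lay between 3.29 and 3.54 on the 6 arrays and EXPA24 between 3.03 and 3.19, dim in every group. Their differences between light and dark were -0.055 ± 0.14 and 0.063 ± 0.13, with 95% intervals of -0.38 to 0.27 and -0.22 to 0.35. Both differences changed sign under some alternatives, and at this signal a change in a scarce transcript may not be detectable. In the RefSeq gene table EXPA21 and EXPA24 are the ends of a row of 6 neighbouring alpha-expansin genes on chromosome 5. The genes between them share 2 probe sets that list 2 genes each, which read 3.10 to 3.51 over all arrays and were called by limma in 0 comparisons, with 0 at an unadjusted p under 0.05 (the lowest was 0.294).

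H2O2 was set against dark, with the same dark arrays, to find expansin transcripts that differ when the peroxide is given without light. EXPA20 fell 1.53 times, a direction that did not hold with the hybridisation controls as the scale, and the other 7 genes were not called. That is 1 of 8 (12.5%), where 20.5% of all probe sets were called, 12.3% higher and 8.18% lower. With only 8 genes, 1 call is near that share, and some alternatives called EXPA4 as well. The median difference was -0.030, beside -0.022 for all probe sets, and the median absolute difference was 0.19 beside 0.23. Arrays did not overlap between the groups for 4 of the 8, where 61.1% of all probe sets had no overlap.

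EXPA20 fell by 0.61 ± 0.15 on the log2 scale (limma adjusted p = 0.0231), a difference that turned to 0.056 with the hybridisation controls as the scale. The call was lost on leaving out H2O2 replicate 2 (-0.46, limma adjusted p = 0.152) or either dark array (-0.57 without the first, adjusted p = 0.0983, and -0.65 without the second, adjusted p = 0.0806).

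Both H2O2 arrays of EXPA4 lie above both dark arrays, as do those of the dim EXPA24, and its difference was the highest of the 8. EXPA4 was higher by 0.42 ± 0.15 (95% interval 0.094 to 0.75), and was not called (limma adjusted p = 0.0725). Nor was it called in 9 of the 14 alternatives, among them the hybridisation control scale. Over all 14 its difference lay between 0.30 and 1.09. The replicates of EXPA4 lie close together, with an SD of 0.0095 in the dark and 0.034 with H2O2. It was called, at 0.42, in a fit of only the dark and H2O2 arrays (adjusted p = 0.049), on leaving out either light array, which comes to the same 0.049, and with an intensity trend in the variance (0.038), and at 0.49 after quantile normalization (0.0374).

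Among the remaining genes, EXPA16 had a difference of 0.15 ± 0.17, EXPA9 of -0.086 ± 0.15, EXPA8 of -0.22 ± 0.21 and EXPA15 of -0.24 ± 0.19. For EXPA9 the 95% interval of -0.43 to 0.26 lies apart from its difference of -1.93 in light. EXPA21 had 0.025 and EXPA24 had 0.094. With the hybridisation controls as the scale all of these differences were above 0 and none was called, so the signs of EXPA8, EXPA9 and EXPA15 depend on the scaling. Centring on the array median turned EXPA21 to -0.096 and EXPA24 to -0.027. The sign also turned for EXPA9 without H2O2 replicate 2 (0.094), for EXPA16 without dark replicate 1 (-0.087), and for EXPA21 without either of these arrays (-0.031 and -0.085).

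**Figure D2:**
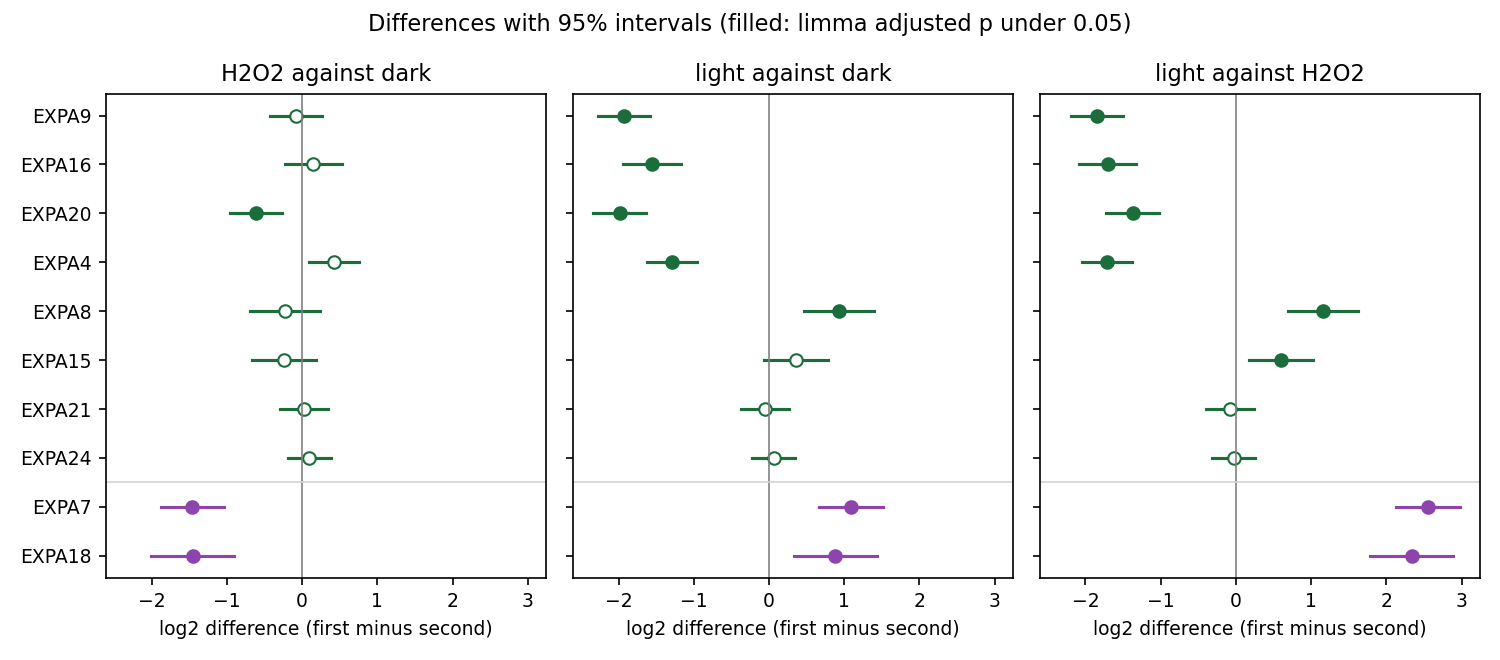
Log2 differences (x axis) with 95% intervals from the limma fit for the 8 alpha-expansins and, under the line, the root hair pair EXPA7 and EXPA18, in the 3 comparisons; filled points were called at an adjusted p under 0.05. With H2O2 EXPA20 alone of the 8 is filled, under 0 here and at 0.056 with the hybridisation controls as the scale, whereas in light 4 genes lie under 0 and EXPA8 above it.

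The root hair pair gives the contrast within the family. EXPA7 read 5.67 and 5.17 in the dark, 3.83 and 4.09 with H2O2, and 6.60 and 6.43 in light. EXPA18 read 6.05 and 5.32, then 4.44 and 4.01, then 6.68 and 6.45. Both are lowest with H2O2 and highest in light, with no overlap. EXPA8 and EXPA15 have the same order of means, but neither was called with H2O2. With H2O2 the difference from dark was -1.46 ± 0.19 for EXPA7 (limma adjusted p = 0.00122) and -1.46 ± 0.24 for EXPA18 (adjusted p = 0.00403). With the hybridisation controls as the scale both had -0.79 and were not called (adjusted p = 0.173 and 0.174). Both are dim with H2O2, where the size of a drop is less well resolved. In light EXPA7 was higher by 1.09 and EXPA18 by 0.88, where EXPA9, EXPA16, EXPA20 and EXPA4 were lower. The light call of EXPA18 ended on leaving out dark replicate 2 or light replicate 1. The difference between the pair and the 8 was not itself tested.

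The comparison of light with H2O2 uses the same arrays as the others and gives the distance between the lit and the treated dark seedlings. EXPA9, EXPA4, EXPA16 and EXPA20 were lower in light than with H2O2, and EXPA8 and EXPA15 were higher. These are 6 of 8 (75%), 4 lower and 2 higher, where 39.5% of all probe sets were called, 22.0% lower and 17.4% higher. The arrays of the same 6 did not overlap, where 67.7% of all probe sets had no overlap. The median absolute difference was 1.26 beside 0.31 for all probe sets.

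EXPA9 differed by -1.85 ± 0.15 (limma adjusted p = 1.54e-05), EXPA4 by -1.71 ± 0.15, EXPA16 by -1.70 ± 0.17 and EXPA20 by -1.37 ± 0.15. For EXPA4 this exceeds the difference from dark, since its H2O2 arrays are the highest, and for EXPA20 it is smaller, since its H2O2 arrays lie between the other groups. EXPA8 was higher by 1.15 ± 0.21 (adjusted p = 0.00173). EXPA15 was higher by 0.60 ± 0.19 (limma adjusted p = 0.0301) but was not called without light replicate 1 (0.34, adjusted p = 0.19), H2O2 replicate 1 (0.45, adjusted p = 0.191) or H2O2 replicate 2 (0.74, adjusted p = 0.0503), nor with the hybridisation controls as the scale (0.79, adjusted p = 0.252). EXPA21 and EXPA24 had -0.080 and -0.032 and were not called.

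**Figure D3:**
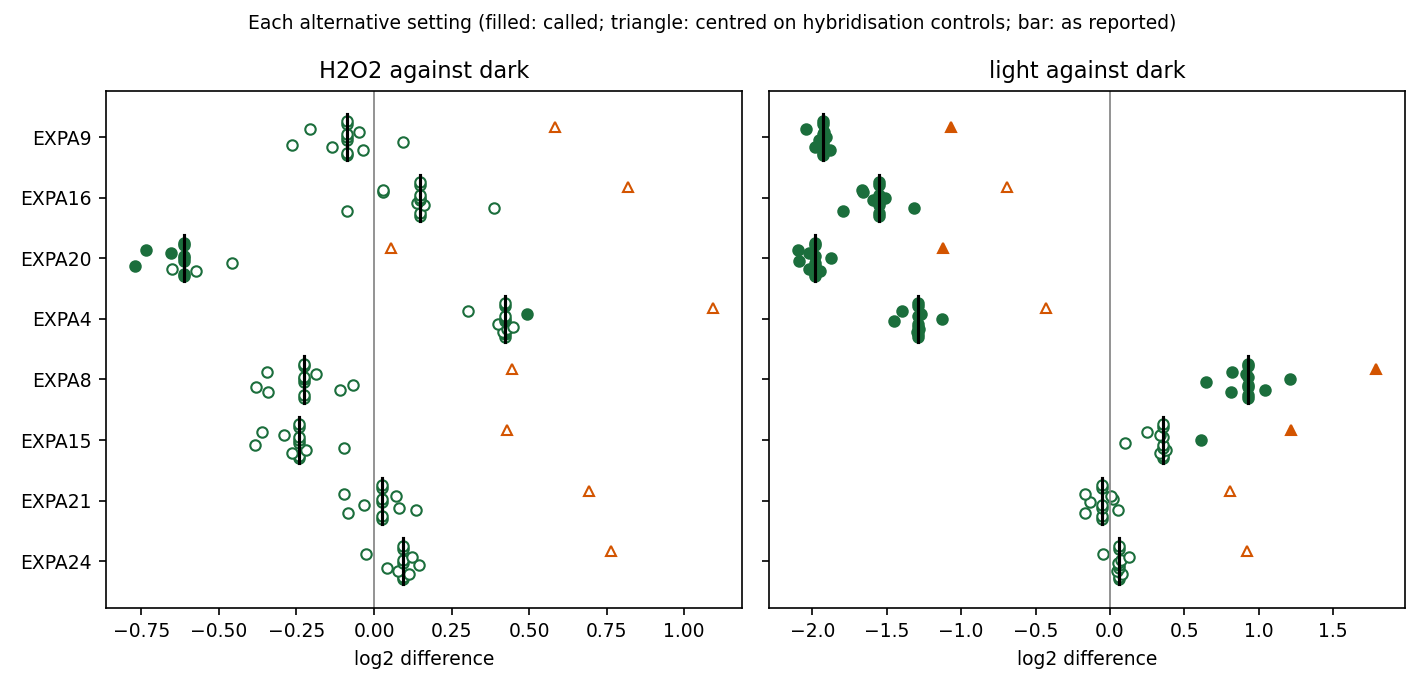
Log2 difference (x axis) of each alpha-expansin under each alternative setting, for H2O2 against dark and light against dark; filled marks were called, triangles are arrays centred on the hybridisation controls, and black bars are the values reported. Triangles lie to the right of all other marks, and EXPA9 and EXPA20 stay filled under 0 in light in every setting.

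Among themselves the 8 genes fall into few shapes. As a measure of likeness the mean of each gene was subtracted and the root mean square difference between 2 genes was taken over the 6 arrays, a description that carries no test. The closest pairs were EXPA21 with EXPA24 at 0.115, both flat, EXPA4 with EXPA16 at 0.196, EXPA9 with EXPA20 at 0.242 and EXPA9 with EXPA16 at 0.252. The farthest pair was EXPA8 with EXPA9 at 1.39, the one higher and the other lower in light.

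Genes outside the family lie closer still to the named members. Of the 13512 other single-gene probe sets, 105 lay nearer to EXPA9 than EXPA20 did. For EXPA16 39 lay nearer than EXPA4, and for EXPA20 181 lay nearer than EXPA9. With so many probe sets set against so few members, some nearer ones were likely beforehand. The 5 nearest to EXPA9 were AT4G09830, AT4G23030, AT2G39430, AT3G50650 and AT4G20320, at 0.078 to 0.121. Nearest to EXPA16 were IYO, also called MINIYO and known as a partner of RNA polymerase II, at 0.083, then AT5G51680, AT1G25230, AT2G30930 and AT5G06560, at 0.126 to 0.155. EXPA20 was nearest to AT3G13650 at 0.067, AT4G01410 at 0.088, AT4G01140 at 0.096, AT3G03170 at 0.109 and AT1G69790 at 0.112. The likeness fixes their direction, and on the deposited scale they show the same steps, AT3G13650 with -0.61 under H2O2 and -1.91 in light.

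**Figure D4:**
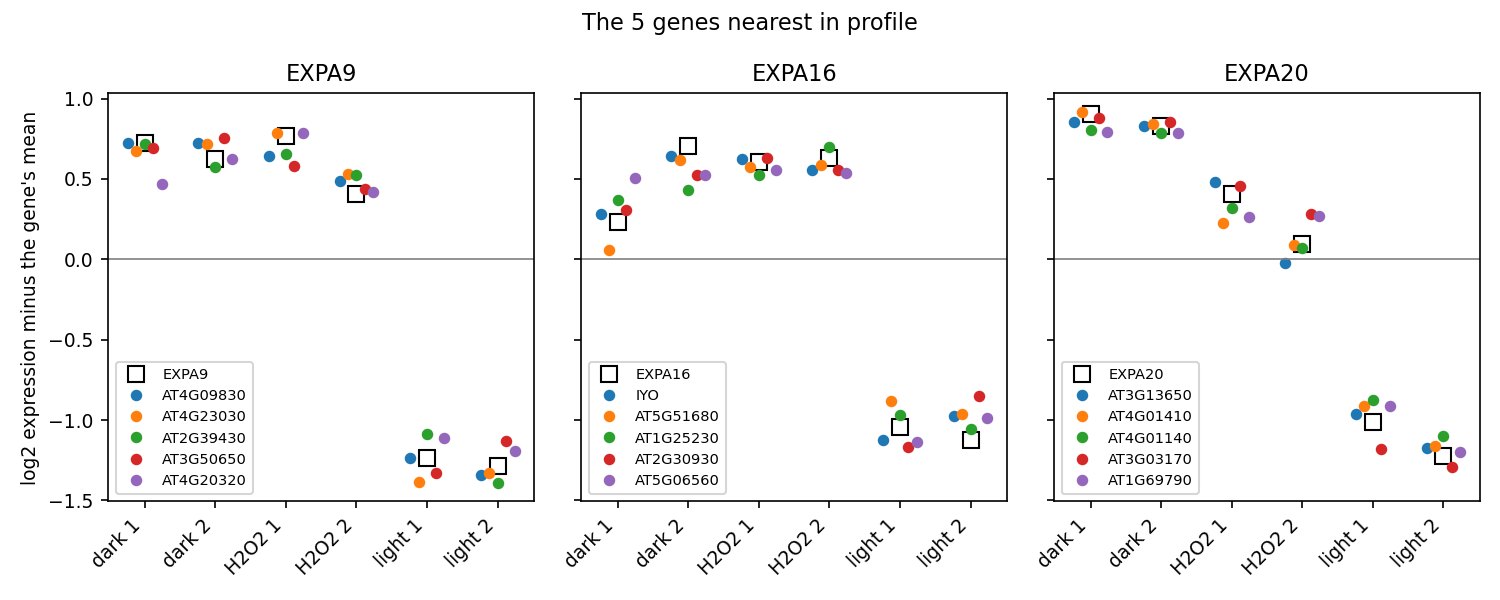
Log2 expression minus the gene's own mean (y axis) on each of the 6 arrays for EXPA9, EXPA16 and EXPA20 (open squares) and the 5 genes nearest to each (points). EXPA20 and its neighbours step down from dark to H2O2 to light, while EXPA9 and EXPA16 and theirs drop mainly in light; the step of EXPA20 with H2O2 turns to 0.056 with the hybridisation controls as the scale.

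The other branches of the expansin superfamily went both ways. Of 6 beta-expansins, a related branch of wall-loosening proteins, 4 were measured. EXPB1 was lower with H2O2, at -0.73 ± 0.18 (limma adjusted p = 0.0207), and had -1.03 ± 0.18 in light, also called. Its arrays read 6.81 and 6.51 in the dark, 5.99 and 5.86 with H2O2, and 5.84 and 5.41 in light. EXPB1 was not called with H2O2 when dark replicate 1 or either H2O2 replicate was left out, and with the hybridisation controls as the scale it had -0.065 and -0.17 and neither was called. EXPB3 was higher in light by 1.23 ± 0.16 (adjusted p = 0.000206) and had -0.25 with H2O2, not called. EXPB2 and EXPB5 were dim in all groups and were not called, with differences from dark of -0.13 and -0.27 with H2O2 and 0.20 and 0.016 in light. On the hybridisation control scale EXPB2 was called higher in light, at 1.06.

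Of the 6 expansin-like genes 5 were measured. EXLB1 had -0.054 with H2O2 and 0.20 in light and was not called. On the hybridisation control scale EXLB1 was called higher in light, at 1.06. EXLA2 rose with H2O2 by 0.74 ± 0.14 (limma adjusted p = 0.00806), from 6.46 and 6.60 to 7.35 and 7.19, and was not called without H2O2 replicate 1 (adjusted p = 0.0672). The light arrays of EXLA2, at 6.33 and 6.55, overlap the dark ones. EXLA1 was lower in light, at -1.24 ± 0.26 (adjusted p = 0.00347), but its light arrays, 6.89 and 7.85, stand far apart, and it was -0.38 and not called with the hybridisation controls as the scale. EXLA3, dim throughout, was lower in light at -0.64 ± 0.18, which turned to 0.22 on that scale, and the call ended on leaving out dark replicate 1 or either light array.

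Xyloglucan endotransglucosylase/hydrolases (XTH) cut and rejoin the xyloglucan chains between cellulose fibrils. Of 33 such genes 10 were measured. In light 3 were higher and 5 lower, where 23.0% and 25.0% of all probe sets were, at a median of -0.45 (all probe sets -0.064), but with the hybridisation controls as the scale XTH33 alone of the 5 was still called lower, and XTH19 and XTH29 turned to 0.012 and 0.23. That scale also called XTH16 higher in light, at 1.17, and XTH19 higher with H2O2, at 1.26. With H2O2 2 of the 10 were called, both lower, a share near the 20.5% of all probe sets, at a median of -0.17 (all probe sets -0.022). XTH33 was lower with H2O2, at -0.69 ± 0.14 (limma adjusted p = 0.0102), which shrank to -0.025 on the hybridisation control scale. In light XTH33 had -2.63 ± 0.14 (adjusted p = 1.01e-06), with 6.90 and 7.19 in the dark, 6.40 and 6.30 with H2O2, and a dim 4.43 and 4.41 in light. That is the same order as EXPA20. XTH21, dim throughout, was lower with H2O2 at -0.65 ± 0.15, which turned to 0.018 on the hybridisation control scale. Both calls with H2O2 ended when either H2O2 replicate was left out, and also without dark replicate 2 for XTH33 or dark replicate 1 for XTH21. XTH26 was higher in light by 2.29 ± 0.20, from a dim level, and XTH32 by 1.84 ± 0.24.

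Few listed genes of polymer synthesis and pectin modification were measured: 2 of 25 for cellulose synthesis, 5 of 15 for xyloglucan synthesis and 3 of 27 for pectin. Most of each list is thus not covered. Among those measured, limma called 0 with H2O2, where 20.5% of all probe sets were called, and 3 of them had an unadjusted p under 0.05. One was called in light, where 48.0% of all probe sets were. COB, which orients cell expansion, had -0.13 with H2O2 and 0.14 in light, and GH9A3, also named KOR3, had -0.37 and -0.067; neither was called. None of 5 CSLC genes, of the family that makes the xyloglucan backbone, was called against dark, and CSLC04 was lower in light than with H2O2, at -0.66 ± 0.19 (limma adjusted p = 0.0223). Of 3 pectin methylesterase genes ATPMEPCRB was lower in light at -1.08 ± 0.35 (limma adjusted p = 0.0303), while PME61 and AT4G02300, both dim, had -0.23 and -0.21 and were not called. ATPMEPCRB was not called without light replicate 1 or either dark replicate, and CSLC04 not without H2O2 replicate 1 or light replicate 1. The hybridisation control scale ended both calls, at -0.22 and -0.47, and called COB in light at 1.00, ATCSLC08 in light at 1.17 and CSLC04 with H2O2 at 1.27.

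Of 44 genes on a list of elongation regulators 7 were measured. IAA29, an Aux/IAA repressor of auxin response, was lower in light at -1.84 ± 0.19 (limma adjusted p = 4.06e-05), at a dim level. With H2O2 it had 0.36 ± 0.19, not called. BIM1, a partner of the brassinosteroid factor BES1, rose with H2O2 by 1.15 ± 0.15 (adjusted p = 0.00127), from 7.15 and 6.88 to 8.25 and 8.08, and was higher in light by 0.46 ± 0.15. The latter call ended without dark replicate 2 or light replicate 1. YUC11, of auxin synthesis and dim throughout, was lower in light at -0.47 ± 0.15, which turned to 0.39 on the hybridisation control scale, and the call ended on leaving out dark replicate 2 or light replicate 1. YUC6, of the same step and dim in the dark and in light, was lower in light than with H2O2 at -0.56 ± 0.14 (limma adjusted p = 0.00998). That call was lost without H2O2 replicate 2 or light replicate 2 and on the hybridisation control scale (-0.37). Listed SAUR genes, plasma membrane proton pumps, and gibberellin and brassinosteroid genes are not analysed here.

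**Figure D5:**
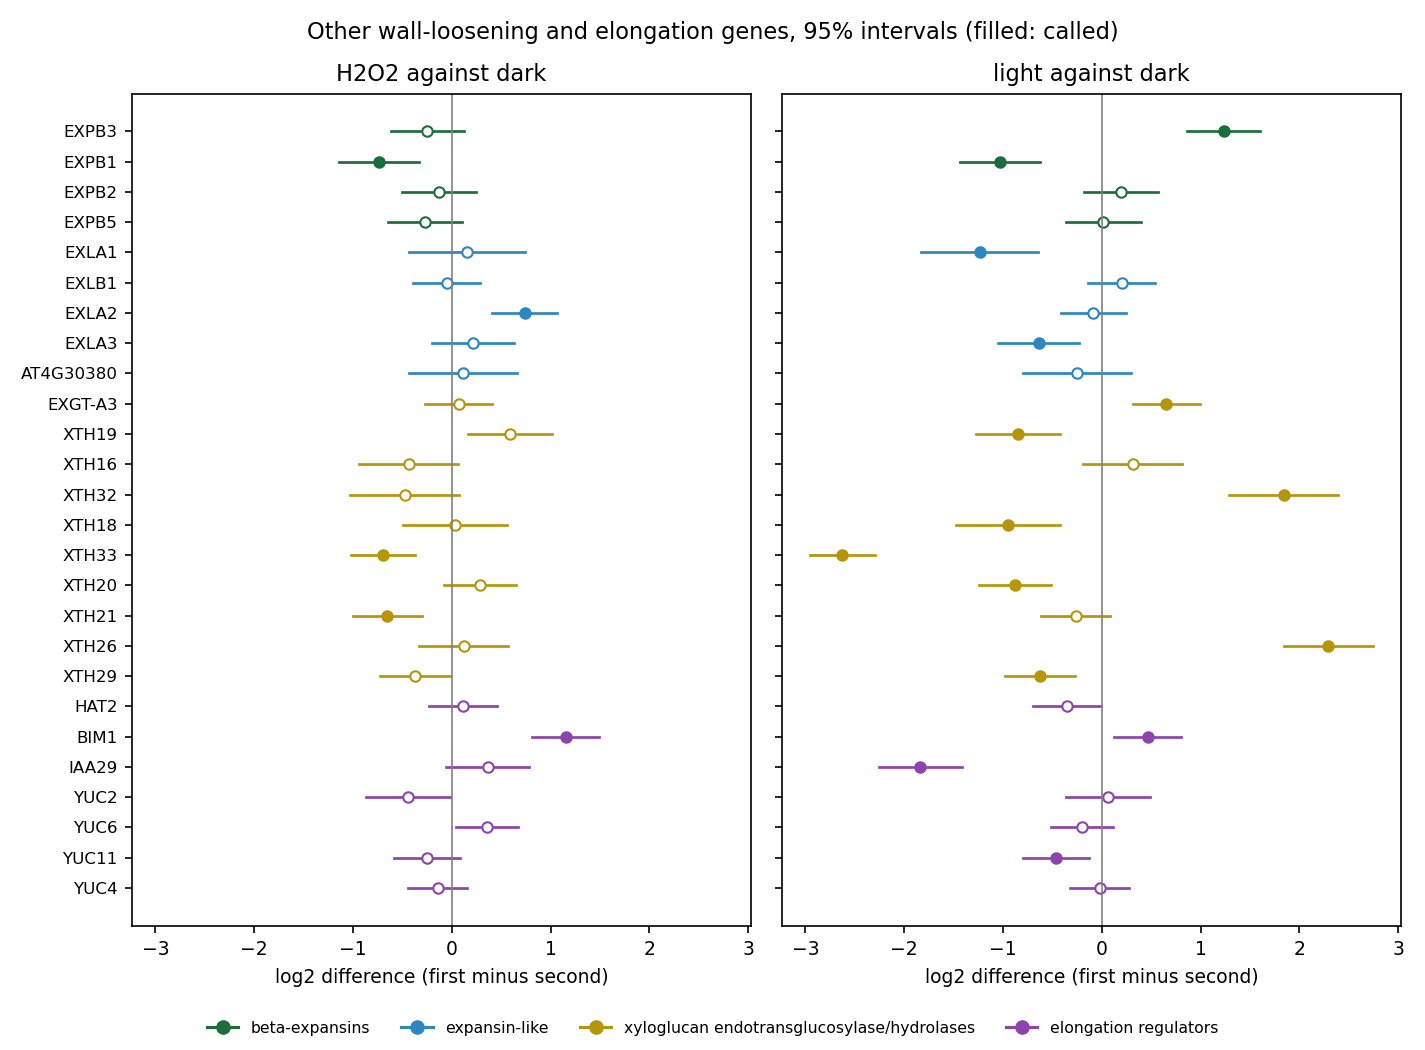
Log2 differences from dark (x axis) with 95% intervals for 4 beta-expansins, 5 expansin-like genes, 10 XTH genes and 7 elongation regulators, with H2O2 and in light; filled points were called. Filled with H2O2 are EXLA2 and BIM1 above 0 and EXPB1, XTH33 and XTH21 under it, where 20.5% of all probe sets were called, and the sign of XTH21 turns on the hybridisation control scale.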

How the data were processed

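Per the labels, seedling total RNA was biotinylated for 1-colour ATH1 arrays. The authors deposited a table of log2 values for 22810 probe sets on 6 arrays. RMA and limma are named in the submitters' processing notes; their versions and settings are unknown, and the log2 scale is inferred from the range of 2.22 to 14.23. Groups and replicate numbers came from the titles. The 64 array controls were set aside.

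The test was limma 3.58.1, run in R 4.3.3 with lmFit and eBayes (all 6 arrays in 1 fit, 3 residual and 5.84 prior degrees of freedom), 2-sided, with Benjamini-Hochberg adjustment over 22746 probe sets in each of 3 comparisons. The steps were tested on simulated data.

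Gene names came from the platform annotation, updated through RefSeq (TAIR10.1) by gene identifier; 13513 probe sets name 1 gene, 503 several and 8730 none here. List genes were matched by symbol or RefSeq synonym; where several probe sets named one, the highest mean stood for it. Named are all members, the root hair pair, the 5 genes nearest in profile to EXPA9, EXPA16 and EXPA20, all genes of lists with up to 4 measured, and in longer lists the 3 called genes with the largest change in each comparison. This rule does not cover the cell type markers; those named, and further list genes named for a change under another scaling, were chosen after their values were seen. Members and lists were chosen with earlier results of these data known. Replicate numbers were not used to pair the samples in the main fit, and the labels state no pairing. Array number sets the precision; there are no counts. The labels give no scan date or batch. Promoter and protein sequences were not used here.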

Additional observations from a re-analysis of the deposited data

How the results depend on the processing

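Over 14 alternatives 330 values of single alpha-expansins were recomputed: 313 kept their side of the threshold, 9 lost a call and 7 gained one. The remaining 1, EXPA20 with H2O2, changed sign and was no longer called. It had 0.056 (limma adjusted p = 0.912) after centring on the hybridisation controls. The number of alpha-expansins called with H2O2, 1 as reported, was 2 in a fit of only the dark and H2O2 arrays, 2 after quantile normalization, 2 with an intensity trend and 0 with centring on the hybridisation controls. Leaving out 1 array in turn gave 0 to 2 with H2O2, 5 to 6 in light and 5 to 6 between light and H2O2, and the call of EXPA20 was lost without H2O2 replicate 2 or either dark array. Over all probe sets the same gave 2135 to 4949 calls with H2O2 (4656 as reported; 2306 without dark replicate 2, 2173 and 2135 without H2O2 replicate 1 and 2), 9315 to 10468 in light (10920) and 6797 to 8843 between them (8981). The lone array left in a group was assumed to vary like the others. Centring on the hybridisation controls left 3370 calls between light and H2O2. It moved the share of calls that were higher from 60.0% to 98.4% with H2O2, from 48.0% to 92.0% in light and from 44.2% to 67.9% between them; centring on the array median gave 39.3% with H2O2. The cause of these changes was not tested.

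The deviations of same-numbered arrays from their group means correlated at -0.032, 0.069 and -0.0019, so no large shift shared by same-numbered arrays was seen. These values cannot show whether same-numbered samples were grown or processed together, which the labels do not state. With the replicate number as a block 1, 5 and 6 alpha-expansins were called, as without it. By Pearson correlation in place of the root mean square difference, 1, 0 and 2 of the 5 genes nearest to EXPA9, EXPA16 and EXPA20 were named again. The planned motif alternative was not run. Dim signal limits EXPA21, EXPA24 and the light level of EXPA16.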
